A study of Mus musculus with 14 samples.

Results

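The semaphorins, ephrins, Slits and netrins are the classical families of guidance cues, together with their receptors. The genes were taken by symbol from the deposited count table: semaphorins (Sema), plexins (Plxn), ephrins (Efna, Efnb), Eph receptors (Epha, Ephb), Slits, Robos, netrins (Ntn) and Unc5 receptors, without Robo4. This gave 68 of 52459 rows, of which 4 (Plxna4os1, Plxna4os2, Plxna4os3 and Unc5cl) only share the start of a symbol and were not counted as guidance genes. Of the remaining 64, 47 had enough reads to be tested and 17 did not. The table holds RNA sequencing of cells from dispersed pancreatic islets of male C57BL/6J mice aged 7 months, an inbred strain, sorted by flow cytometry on acidic beta-galactosidase activity, a marker of cellular senescence. All 14 libraries come from that strain, sex and age with no treatment named: 7 of beta-galactosidase-negative cells (negative 1 to 7) and 7 of beta-galactosidase-positive cells (positive 1 to 7). The sort was on enzyme activity and not on a marker of a cell type. No label says which mice, or how many, stand behind a library, so p-values measure the spread between libraries, which may be partly technical.

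As background, these proteins were named for steering growing axons, and the same cues act between cells of many other tissues. Secreted and membrane semaphorins bind plexins, in part with neuropilins as co-receptors. Ephrins and Eph receptors both sit in membranes and signal in both directions where cells touch. Slits bind Robo receptors, and netrins bind Dcc, neogenin and the Unc5 receptors. In islets, ephrin-A and EphA signalling between neighbouring beta cells is known to affect insulin release, and Robo receptors are known to be needed for islet architecture. In blood vessels, Plxnd1, Efnb2, Ephb4, Unc5b and Robo4 are well known from endothelial cells.

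Total counts were 11060144 to 23045934 reads in negative and 15585779 to 24577025 in positive libraries, and values below are CPM, read counts scaled to a common library size, unless they are said to be per length. The beta cell markers Ins1, Ins2, Iapp and 7 others summed to 103463 to 154433 CPM in negative and 99425 to 129660 CPM in positive libraries, and none of the 10 was called (with the replicate number as a block, 5 fell). Markers of other cells moved with the sort. Of 18 endothelial markers 17 were tested and 17 rose; their sum was 8.30 to 78.3 CPM in negative and 422 to 1410 CPM in positive libraries, highest in positive 6 (1410) and 7 (1355), and Cldn5 had no count in any negative library. Of 16 macrophage markers 14 were tested and 14 rose (13 with the block), with a sum of 18.3 to 25.8 against 86.2 to 727 CPM, again highest in positive 6 and 7. Of 14 pericyte, stellate and fibroblast markers 11 were tested and 5 rose; their sum was 1466 CPM in negative 3 and 16.3 to 253 CPM in the other 13 libraries. Of 4 delta cell markers 3 were tested, Sst and Hhex rose and 1 was not called. Of 7 tested acinar markers 4 (Cel, Pnlip, Clps and Cpb1) fell (6 with the block). Of 6 alpha, 2 PP, 3 Schwann and 4 ductal markers tested none was called without the block. With it, 1 Schwann marker fell and 1 ductal marker rose. Of 2 lymphocyte markers tested Cd79b rose and Cd79a fell. In bulk RNA, a larger share of cells of a type and more RNA per cell cannot be told apart. The part of these markers in the results below was not tested.

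Of the 47 guidance genes tested, 17 rose in positive libraries, 0 fell and 30 were not called, in the quasi-likelihood test of edgeR, with p-values adjusted by Benjamini-Hochberg over all 16350 genes tested (adjusted p below 0.05). Without adjustment, 22 had p below 0.05, of which Epha7 alone was lower. The 17 are 36.2% of the 47. Over all genes tested, 8.03% were called, 6.40% higher and 1.63% lower. The median log2 fold change (positive minus negative) was 0.25 for the 47 and 0.00 for all genes. Within the 7 pairs of libraries of the same number, 14 of the 17 were higher on the positive side every time. The 17 were picked by their rise in these same libraries, so this count adds no separate evidence. In 9 of the 47 the lowest positive library was above the highest negative library, against 3.50% of all genes, and in 0 it was the reverse, against 0.355%. Sema3f, Sema7a, Plxna4, Ephb4 and Robo3 needed their positive libraries to pass the count filter. Their place among the 47 was therefore set by their rise, and they are among both the 17 and the 9. With the replicate number as a block, 20 rose and 1 fell, where 19.6% of all genes were called, 11.8% higher and 7.77% lower. Without a filter on low counts, 20 of the 64 rose and 0 fell, where 4.80% of 31875 genes were called, 3.94% higher and 0.856% lower. Without the 4 libraries numbered 6 and 7, 12 of the 17 were called, where 3.55% of all genes were, 3.28% higher and 0.275% lower. Those lost were Efna1 (adjusted p = 0.0568), Epha2 (0.136), Plxna1 (0.187), Sema6d (0.192) and Sema6a (0.426).

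**Figure D1:**
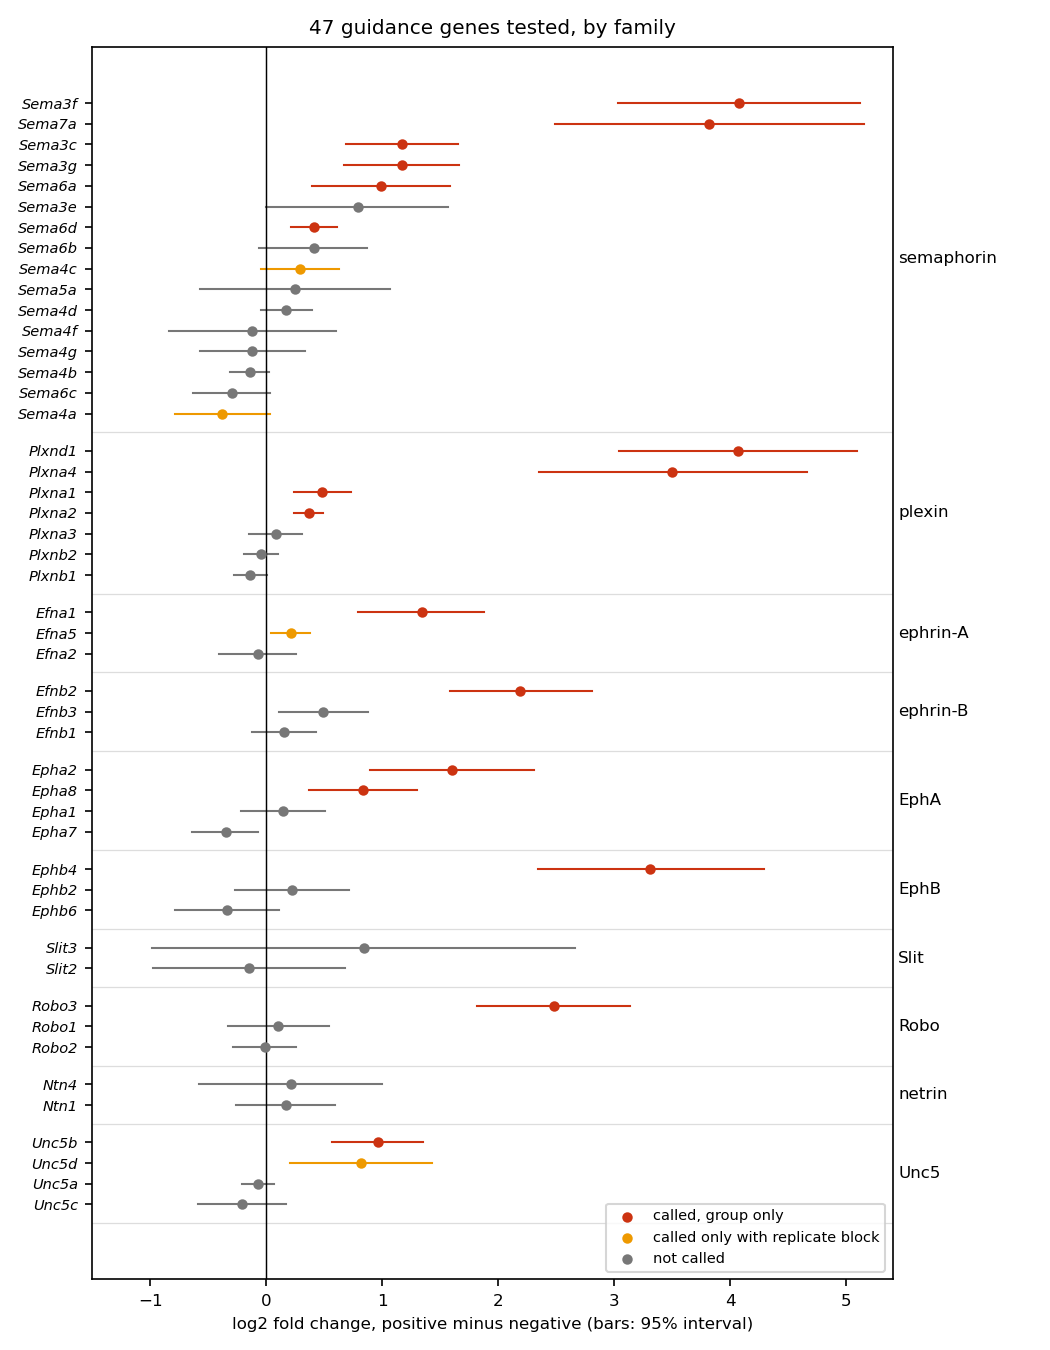
Log2 fold change (positive minus negative, horizontal axis) of the 47 guidance genes tested, grouped by family, with 95% intervals from edgeR's quasi-likelihood fit of 7 against 7 libraries. Red points were called without the block, orange points only with the replicate number as a block and grey points in neither. The 7 genes above 2 on the log2 scale are spread over semaphorins, plexins, ephrin-B, EphB and Robo.

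Of 20 semaphorins, the ligands of plexins, 16 were tested and 6 rose: Sema3f, Sema7a, Sema3c, Sema3g, Sema6a and Sema6d. The other 10 were not called. The largest changes were those of Sema3f, a secreted class 3 semaphorin that signals through neuropilin-2, and Sema7a, which is anchored in the membrane by a lipid tail. Sema3f (chromosome 9, 107681500 to 107710475, GRCm38) had a lowest, median and highest level of 0.301, 1.02 and 3.59 CPM in negative libraries. In positive libraries the same values were 9.89, 17.6 and 43.1 CPM. Even the lowest positive library, positive 3, was above every negative library, and positive 6 and 7 were the highest. The log2 fold change was 4.08 ± 0.49 (SE, 7 libraries a group, adjusted p = 0.000139). Sema7a (chromosome 9, 57940112 to 57962865) was at 0.270, 0.927 and 8.84 CPM in negative and at 17.9, 28.7 and 64.8 CPM in positive libraries. The 8.84 CPM stood in negative 3, the library with the high stromal markers, where the next highest negative library had 3.43 CPM. The log2 fold change of Sema7a was 3.82 ± 0.62 (adjusted p = 0.00125), and 4.50 without negative 3.

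The other class 3 semaphorins were smaller changes or none. Sema3c, a secreted cue known from heart outflow and vessel development, had 5.63, 9.31 and 14.8 CPM in negative and 13.4, 19.9 and 30.3 CPM in positive libraries, so the groups overlapped only through negative 3 at 14.8 CPM. Its log2 fold change was 1.17 ± 0.22 (adjusted p = 0.00314). Sema3g, known from arteries, had 1.39, 1.79 and 2.71 CPM against 2.42, 3.94 and 7.14 CPM (1.17 ± 0.23, adjusted p = 0.00386), with positive 3 lowest and positive 6 highest. Sema3e, which binds Plxnd1 without a neuropilin, was not called. It had 9.98, 20.7 and 27.3 CPM in negative and 9.89, 27.2 and 65.9 CPM in positive libraries (0.79 ± 0.36, adjusted p = 0.236, higher in 6 of 7 pairs). Its 3 highest libraries were positive 2 (65.9), 7 (55.1) and 6 (36.4), while positive 3 was below all 7 negative libraries.

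Among the membrane semaphorins of classes 4 to 6, log2 fold changes ran from −0.38 (Sema4a) to 0.99 (Sema6a). Sema6d, a ligand of Plxna1, was one of the better expressed, with 25.4, 29.9 and 38.1 CPM in negative and 32.1, 41.3 and 46.1 CPM in positive libraries. It rose by a log2 fold change of 0.41 ± 0.09 (adjusted p = 0.0115) and was higher in all 7 pairs, although the ranges overlapped. Sema6a, a ligand of Plxna2 and Plxna4, had 1.32, 1.95 and 4.05 CPM against 2.62, 4.40 and 7.69 CPM (0.99 ± 0.28, adjusted p = 0.0398). Adjusted p rose to between 0.0540 and 0.0973 when any one of 8 libraries (negative 4, 5, 6, 7; positive 1, 2, 6, 7) was left out. Sema4c and Sema4a were called only with the block, in opposite directions. Sema4c was higher in all 7 pairs (log2 fold change 0.29 ± 0.16, adjusted p = 0.313 without and 0.00633 with the block). Sema4a, known from immune cells, was lower in the positive library of every pair (−0.38 ± 0.19, adjusted p = 0.282 and 0.00254). Sema4b, the semaphorin with the highest level per length in negative libraries, was at 47.2, 54.8 and 62.5 CPM in negative and 46.1, 48.3 and 56.7 CPM in positive libraries (−0.14, 95% interval −0.31 to 0.02, adjusted p = 0.308). Sema6b was not called with all libraries (0.41, adjusted p = 0.310) and was called without negative 1 (0.67, adjusted p = 0.00813). The remaining semaphorins tested, Sema4d, Sema4f, Sema4g, Sema5a and Sema6c, had log2 fold changes of −0.30 to 0.25.

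Of 9 plexins, the semaphorin receptors, 7 were tested, 4 rose and 3 were not called. Plxnd1 (chromosome 6, 115954811 to 115995005), the plexin of vascular endothelium, had 0.607, 1.11 and 3.99 CPM in negative libraries. It had 17.7, 24.4 and 60.1 CPM in positive libraries, with positive 6 and 7 highest (60.1 and 56.1 CPM), as negative 7 and 6 were among the negative libraries. The log2 fold change was 4.07 ± 0.48 (adjusted p = 0.000132). Plxna4 (chromosome 6, 32144268 to 32588192) rose as well, from 0.0674, 0.530 and 1.38 CPM to 3.05, 7.56 and 12.5 CPM, the latter in positive 7 (3.50 ± 0.54, adjusted p = 0.000641). These negative levels rest on few reads, 81 counts of Plxna4 over the 7 negative libraries, so the size of the fold is less certain than its direction.

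Plxna2 and Plxna1 changed little but evenly. Plxna2 (chromosome 1, 194618218 to 194816869) was at 64.1, 71.4 and 81.1 CPM in negative and 86.0, 90.8 and 99.0 CPM in positive libraries. The groups did not overlap, and the log2 fold change of 0.37 ± 0.06 (adjusted p = 0.000664) was called at a 1.29-fold difference. It was 0.37 without the libraries numbered 6 and 7 as well (adjusted p = 0.0109). Plxna1 had 19.4, 25.1 and 31.6 CPM against 29.3, 35.8 and 42.8 CPM (0.48 ± 0.11, adjusted p = 0.0131), higher in all 7 pairs with overlapping ranges. Plxnb2, a receptor of class 4 semaphorins, was the most abundant guidance gene and was not called: 297, 352 and 392 CPM in negative and 301, 338 and 361 CPM in positive libraries (−0.05, 95% interval −0.19 to 0.10, adjusted p = 0.754). Plxnb1, the receptor of Sema4d, differed by −0.14 on the log2 scale (−0.28 to 0.01, adjusted p = 0.273), and Plxna3 by 0.08 (adjusted p = 0.736).

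**Figure D2:**
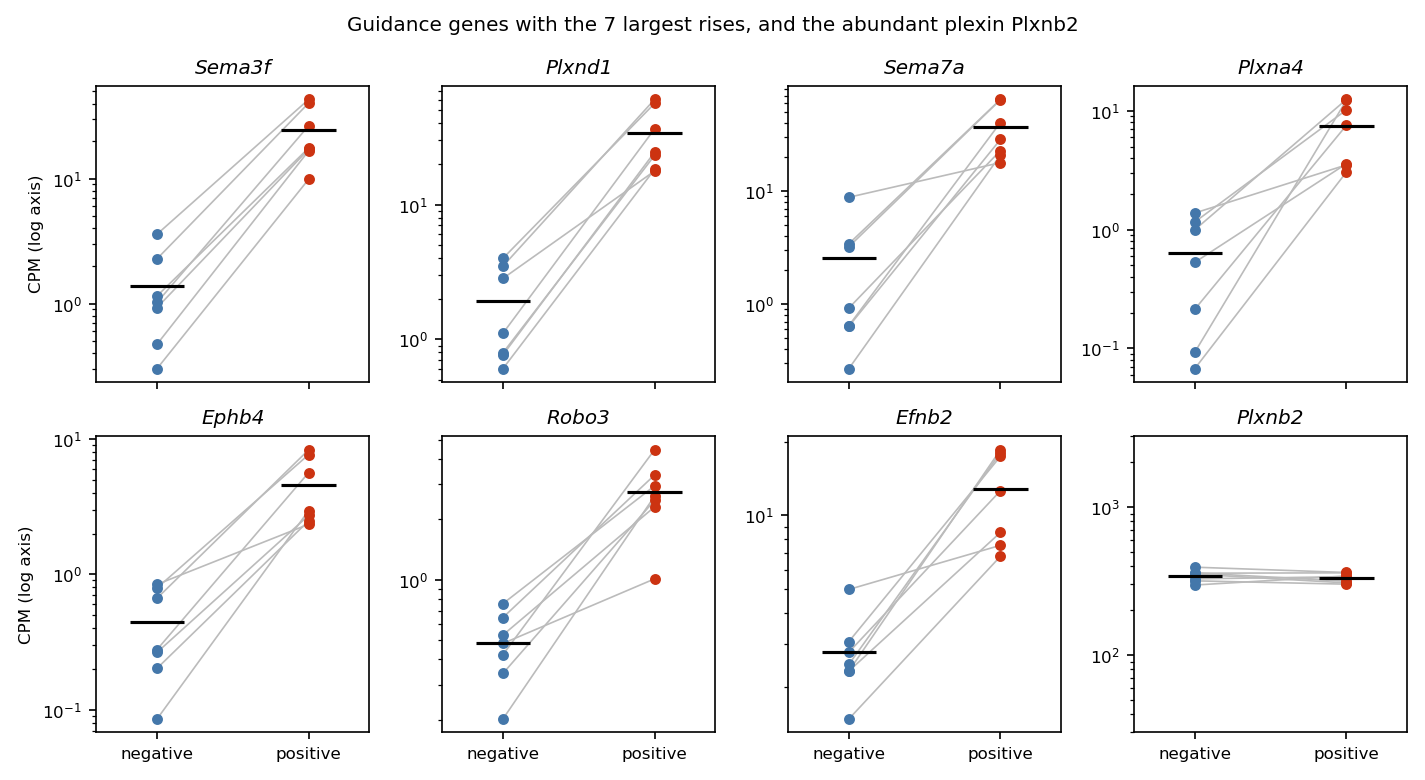
CPM on a log axis (vertical) in negative and positive libraries for the 7 guidance genes with a log2 fold change above 2 and for Plxnb2. Blue and red points are the 7 libraries of each group, grey lines join libraries of the same number and black bars are group means. The groups do not overlap for the first 7 genes, while Plxnb2 lies between 297 and 392 CPM in all 14 libraries.

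Ephrins are the membrane-bound ligands of Eph receptors: the A class is held by a lipid anchor and the B class spans the membrane. Of 5 ephrin-A genes 3 were tested and Efna1 rose, and of 3 ephrin-B genes 3 were tested and Efnb2 rose. Efnb2 (chromosome 8, 8617434 to 8661242), a marker of arterial endothelium, was at 1.48, 2.47 and 4.99 CPM in negative and 6.81, 12.6 and 18.5 CPM in positive libraries. The highest negative value was again that of negative 3, and it was below all positive libraries. The log2 fold change was 2.19 ± 0.29 (adjusted p = 0.000188). Efna1, a ligand of Epha2, had 4.10, 4.56 and 5.95 CPM against 5.89, 9.95 and 20.4 CPM (1.34 ± 0.25, adjusted p = 0.00291). Only positive 3, at 5.89 CPM, lay within the negative range.

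Efna5, the ephrin known from beta cell contacts, was the ephrin with the highest mean level per length. It had 24.9, 26.4 and 31.2 CPM in negative and 25.4, 31.7 and 36.5 CPM in positive libraries, and was called only with the block (log2 fold change 0.21 ± 0.08, adjusted p = 0.140 without and 0.0468 with it). Efnb1 was at 9.17, 11.4 and 15.3 CPM against 10.4, 13.7 and 15.1 CPM and was not called (0.15, 95% interval −0.12 to 0.43, adjusted p = 0.545). Efnb3 differed by 0.49 on the log2 scale (adjusted p = 0.122) and was called without positive 3 (0.60, adjusted p = 0.0272), and Efna2 differed by −0.07 (adjusted p = 0.843).

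Of 9 EphA receptors 4 were tested and 2 rose, Epha2 and Epha8, and of 5 EphB receptors 3 were tested and Ephb4 rose. Ephb4 (chromosome 5, 137350109 to 137378669), the receptor of Efnb2 known from venous endothelium, was at 0.0854, 0.278 and 0.842 CPM in negative libraries, 55 counts in all. It was at 2.34, 2.95 and 8.30 CPM in positive libraries, with positive 6 and 7 the highest (log2 fold change 3.31 ± 0.46, adjusted p = 0.000255). The groups did not overlap for Efnb2 or Ephb4, a ligand and its receptor, so both were higher in all 7 pairs. Epha2 had 3.33, 4.05 and 9.82 CPM in negative and 6.78, 19.5 and 27.0 CPM in positive libraries (1.60 ± 0.33, adjusted p = 0.00619). Its highest negative libraries were negative 2 and 1, at 9.82 and 8.84 CPM, and its lowest positive library was positive 3.

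Epha8 was low in both groups, with 0.541, 1.06 and 1.53 CPM against 1.37, 1.72 and 2.05 CPM (0.83 ± 0.22, adjusted p = 0.0252). Without negative 1, negative 5 or positive 7 it was not called (adjusted p 0.0568 to 0.0592). Epha7 was the guidance gene with a lower mean in positive libraries and an unadjusted p below 0.05. It had 6.85, 10.2 and 12 CPM against 6.17, 7.36 and 9.85 CPM (−0.35 ± 0.13, adjusted p = 0.132), and was called without negative 3 (−0.44, adjusted p = 0.0360). Epha1 (0.14), Ephb2 (0.22) and Ephb6 (−0.34), a receptor without kinase activity, were not called.

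The 250 bases before the start site are shown for a plexin and a semaphorin that rose, Plxnd1 and Sema7a, and for the ephrin Efnb2 and its receptor Ephb4. Plxnd1 and Sema7a are not given here as a receptor and its ligand. The windows are from RefSeq on GRCm38.p6, read on the gene's strand, and none overlaps an annotated exon. Capitals mark GGGCGG, the GC box bound by Sp factors, and AGGAAG, a core of sites of ETS factors, on either strand (so CCGCCC and CTTCCT are marked too).
Plxnd1 chr6:115995006-115995255, minus strand: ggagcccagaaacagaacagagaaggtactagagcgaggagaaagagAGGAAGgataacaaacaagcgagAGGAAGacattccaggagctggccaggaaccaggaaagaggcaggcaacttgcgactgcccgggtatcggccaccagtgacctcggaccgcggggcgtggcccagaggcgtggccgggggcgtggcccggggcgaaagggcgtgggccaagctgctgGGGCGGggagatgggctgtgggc
Sema7a chr9:57939862-57940111, plus strand: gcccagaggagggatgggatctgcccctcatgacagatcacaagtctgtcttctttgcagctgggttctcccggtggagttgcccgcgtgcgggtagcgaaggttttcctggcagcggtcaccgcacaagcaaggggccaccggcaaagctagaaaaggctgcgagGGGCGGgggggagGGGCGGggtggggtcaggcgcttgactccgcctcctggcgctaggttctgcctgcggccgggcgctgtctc
Efnb2 chr8:8661243-8661492, minus strand: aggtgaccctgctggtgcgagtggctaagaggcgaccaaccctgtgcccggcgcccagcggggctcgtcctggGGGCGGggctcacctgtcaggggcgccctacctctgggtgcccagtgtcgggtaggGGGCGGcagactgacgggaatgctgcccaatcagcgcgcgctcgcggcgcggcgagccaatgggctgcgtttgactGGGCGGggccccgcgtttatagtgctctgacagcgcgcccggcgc
Ephb4 chr5:137349859-137350108, plus strand: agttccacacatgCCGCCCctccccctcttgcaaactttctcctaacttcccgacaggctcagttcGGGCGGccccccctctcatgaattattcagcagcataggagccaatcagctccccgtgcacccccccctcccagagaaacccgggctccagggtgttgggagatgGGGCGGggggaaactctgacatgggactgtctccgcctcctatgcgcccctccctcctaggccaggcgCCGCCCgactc

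All 4 windows were rich in G and C (64.0% to 72.0%) and held at least 1 GC box: 4 in Ephb4, 3 in Efnb2, 2 in Sema7a and 1 in Plxnd1. AGGAAG stood in the Plxnd1 window alone, 2 times. Of the 17 genes that rose, 13 had windows in the RefSeq table, 15 in all. Of these 15, GGGCGG was in 14 (93.3%), AGGAAG in 4 (26.7%) and TGACTCA, the site of AP-1 factors, in 0. The 27 matched guidance genes that were tested and not called had 40 windows. In these the same motifs were in 28 (70.0%), 13 (32.5%) and 2 (5.00%). Over all 32851 windows of that length in the table, the shares were 32.7%, 29.5% and 4.46%, and none of the 3 motifs contains another. No comparison was made with windows of matched G and C content. A match here is a match of letters only.

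Slits and their Robo receptors divided by level. Robo2 and Robo1 were abundant, while the Slits were near the limit of detection. Robo2 had 137, 157 and 195 CPM in negative and 117, 140 and 213 CPM in positive libraries (log2 fold change −0.01, 95% interval −0.29 to 0.26, adjusted p = 0.970). Its sign turned, to at most 0.07, when libraries were left out. Robo1 differed by 0.10 on the log2 scale (−0.33 to 0.54, adjusted p = 0.824), with its highest level, 79.2 CPM, in positive 3, the positive library lowest in Plxnd1 and Sema7a.

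Robo3, known from axons that cross the midline, was called, alone among the 3 Robos tested here. It had 0.202, 0.481 and 0.760 CPM in negative libraries (58 counts in all) and 1.01, 2.61 and 4.45 CPM in positive libraries, with no overlap (2.48 ± 0.31, adjusted p = 0.000117). Robo3 (chromosome 9, 37415669 to 37433246, minus strand) and the endothelial gene Robo4 (37401897 to 37415115, plus strand) face each other with 553 bases between their annotated ends. Robo4, which was not counted among the 64, went from 0.789 ± 1.14 to 26.4 ± 13 CPM (mean ± SD over 7 libraries), a log2 fold change of 4.93 ± 0.66 (adjusted p = 0.000309). Whether reads past the end of Robo4 were counted to Robo3 was not tested.

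Slit3 was at 0.0427, 0.0674 and 4.63 CPM in negative and 0.318, 1.48 and 2.07 CPM in positive libraries. Of its 92 negative counts 77 were in negative 3. It was not called with all libraries (0.84 ± 0.85, adjusted p = 0.626), and without negative 3 its log2 fold change was 3.21 (adjusted p = 0.000950). Slit2 had 0.634, 0.927 and 3.73 CPM against 0.513, 1.17 and 2.28 CPM (−0.15, adjusted p = 0.873), also highest in negative 3. In that library the pericyte, stellate and fibroblast markers summed to 1466 CPM, and their part in these values was not tested.

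Of 3 netrins, secreted proteins related to laminins, 2 were tested and neither was called. Ntn4, a netrin of basement membranes, had 2.77, 3.77 and 10.3 CPM in negative and 2.79, 4.40 and 12 CPM in positive libraries (0.21 ± 0.37, adjusted p = 0.799), highest in positive 2 and negative 2. Ntn1 differed by 0.17 on the log2 scale (95% interval −0.26 to 0.59, adjusted p = 0.690). All 4 Unc5 receptors were tested and Unc5b rose. Unc5b, known from endothelial tip cells, was at 11.4, 15.6 and 20 CPM in negative and 20, 31.0 and 41.4 CPM in positive libraries. Its groups met at 20 CPM without overlapping, and the log2 fold change was 0.96 ± 0.18 (adjusted p = 0.00294). Unc5a, the most abundant of the family, had 45.3, 47.7 and 53.2 CPM against 39.8, 44.3 and 51.8 CPM (−0.07, 95% interval −0.21 to 0.07, adjusted p = 0.593). Unc5d was called only with the block (0.82 ± 0.29, adjusted p = 0.105 without and 0.0467 with it, higher in all 7 pairs), and Unc5c was not called (−0.21, adjusted p = 0.548).

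**Figure D3:**
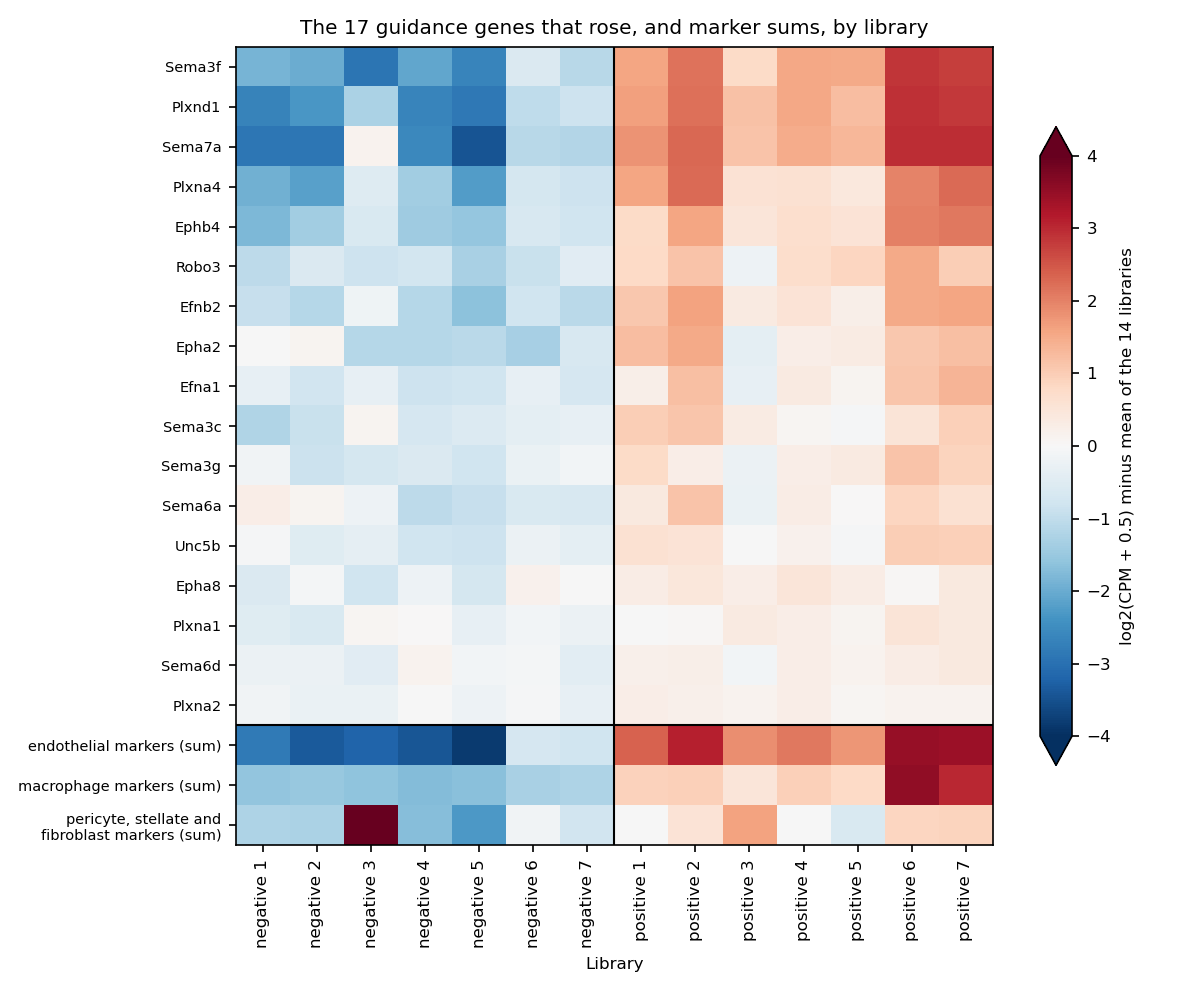
Log2(CPM + 0.5) minus its mean over the 14 libraries (colour) for the 17 guidance genes that rose and for summed markers of endothelial cells, of macrophages and of pericytes, stellate cells and fibroblasts (rows), by library (columns); colours saturate at 4. Endothelial marker sums run from 8.30 CPM in negative 5 to 1410 CPM in positive 6, and the 7 genes with log2 fold changes above 2 are highest in positive 2, 6 and 7.

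The genes with the largest rises were low in negative libraries, a relation that the count filter partly sets. Sema3f, Sema7a, Plxna4, Ephb4 and Robo3 had negative libraries too low for the filter and needed positive ones to pass it. The 7 genes with log2 fold changes above 2 (Sema3f, Plxnd1, Sema7a, Plxna4, Ephb4, Robo3 and Efnb2) had means of 0.447 to 2.77 CPM in negative libraries. A further 7, with negative means of 0.993 to 15.3 CPM, rose by 0.5 to 2, and the 3 that rose by less than 0.5 (Plxna1, Sema6d and Plxna2) had negative means of 25.4 to 71.9 CPM. Each of the first 7 had its 3 highest levels in positive 2, 6 and 7, where endothelial markers also summed highest (1072, 1410 and 1355 CPM). Among positive libraries, the macrophage, delta, PP and alpha marker sums were highest in these 3 as well (delta 1655, 1454 and 2198 CPM). The part of any cell type in these levels was not tested. With numbers 6 and 7 left out, all 7 were still called, with log2 fold changes of 1.95 for Efnb2 to 4.48 for Sema3f.

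Because longer genes collect more reads, levels of different genes were compared per kilobase of exon (CPM per kb). In negative libraries the order was led by Plxnb2 (44.4 ± 4.09, SD, n = 7), Unc5a (11.5 ± 0.630), Sema4b (9.79 ± 1.16), Robo2 (9.30 ± 1.13), Plxnb1 (8.31 ± 0.800) and Efna5 (6.65 ± 0.530). From Unc5a to Efna5 each overlapped its neighbour in this order, whereas the lowest value of Plxnb2, 38.4, was above all values of the others. In positive libraries Plxnb2 was again first (43.0 ± 3.18), and Sema7a, which stood 26 in the order of the 64 genes in negative libraries (0.779 ± 0.925), was second at 11.3 ± 6.10. The values of Sema7a in positive libraries ran from 5.44 to 19.7 and overlapped those of Unc5a, Robo2 and Sema4b. Sema3f moved from place 36 to 11, and Plxnd1 from place 38 to 12. Summed over the family, semaphorins went from 30.8 ± 1.99 to 50.3 ± 12.3 and plexins from 63.2 ± 4.86 to 68.7 ± 2.73 CPM per kb. Within families, Epha2 led the EphA receptors (1.20 ± 0.566 and 3.64 ± 1.57 in negative and positive libraries), Efnb1 the ephrin-B genes (3.39 ± 0.685 and 3.77 ± 0.567) and Ntn4 the netrins (1.39 ± 0.742 and 1.60 ± 0.916). Ephb6 was first of the EphB receptors in negative (0.503 ± 0.163) and Ephb4 in positive libraries (0.987 ± 0.556), where Ephb2 (0.571 ± 0.223) overlapped it.

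**Figure D4:**
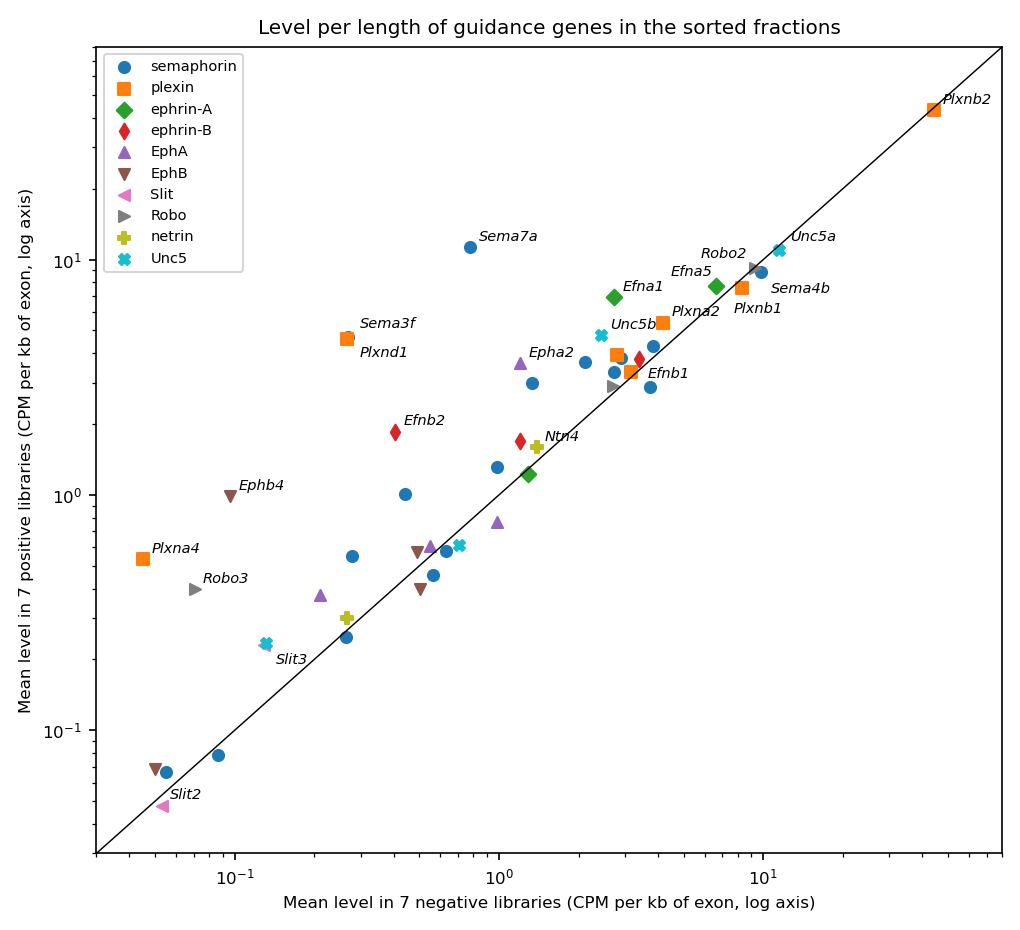
Mean level per length (CPM per kb of exon, both axes log) in the 7 negative (horizontal) and the 7 positive libraries (vertical) for the 49 guidance genes at or above 0.04 in both groups, with a symbol for each family and the line of equal levels. Plxnb2, Unc5a and Robo2 lie near the line, while Sema7a, Sema3f and Plxnd1 lie far above it.

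The proteins that carry guidance signals further were taken as a list of co-receptors, adaptors and downstream enzymes. The list also held Robo4, a receptor left out of the guidance genes above, and Robo4 is among the risen genes counted here. Of 86 listed, 85 were in the table and 75 were tested; 14 rose, 1 fell and 60 were not called, with a median log2 fold change of 0.15. Over all genes, 6.40% rose and 1.63% fell. With the block 23 rose and 2 fell, where 11.8% and 7.77% of all genes did, and without the libraries numbered 6 and 7, 7 rose and 0 fell, where 3.28% and 0.275% did. The neuropilins, co-receptors of class 3 semaphorins, rose most after Robo4. Nrp1 went from 1.16 ± 0.838 to 26.5 ± 13 CPM (mean ± SD), a log2 fold change of 4.43 ± 0.44 (adjusted p = 5.06e-05), and Nrp2 from 2.42 ± 1.62 to 40.8 ± 19.8 CPM (log2 fold change 4.03 ± 0.45, adjusted p = 0.000115). The groups did not overlap for the ligand Sema3f, its co-receptor Nrp2 or the plexins Plxnd1 and Plxna4, so each was higher in every pair. Of the other plexins tested, Plxna1 and Plxna2 rose by less. Plxna3 (log2 fold change 0.08, higher in 4 of 7 pairs), Plxnb1 and Plxnb2 were not called. Whether these genes act together was not tested.

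The other listed genes that rose were Rnd1, a small GTPase that binds plexins (1.73 ± 0.23), Fes, a tyrosine kinase (1.65 ± 0.27), Mical1, an enzyme that oxidises actin (1.75 ± 0.36), Fyn (0.81 ± 0.20), Rras (0.43 ± 0.13) and 6 more. Those 6 were Sh2d3c, an adaptor of Eph receptors (1.08 ± 0.16), Dock1 (1.42 ± 0.26), Rgs3 (0.46 ± 0.09), Micall1 (0.36 ± 0.07), Dscam, a netrin receptor (1.43 ± 0.36), and Grb10 (0.31 ± 0.09). Close relatives of some were not called: Rnd2 (0.11, adjusted p = 0.628), Rnd3 (0.07, 0.803), Mical2 (0.14, 0.602) and Mical3 (−0.10, 0.483). Grb7, an adaptor that binds receptor tyrosine kinases, fell from 41.7 ± 3.43 to 34.4 ± 4.26 CPM (−0.28 ± 0.08, adjusted p = 0.0410, lower in all 7 pairs). Grb7, Grb10 and Rras were no longer called without 7, 12 and 10 of the 14 libraries, each left out in turn (adjusted p up to 0.0820, 0.134 and 0.112). Called only with the block were Ablim1 (log2 fold change 0.45, adjusted p = 0.320 without and 0.000558 with it), Gsk3b (0.22, 0.263 and 0.00237), Vasp (0.26, 0.0687 and 0.00381), Srgap1 (0.38, 0.0903 and 0.00684) and Adam10 (0.16, 0.311 and 0.00709). The same held for Dpysl5 (0.59, 0.104 and 0.0107), Sipa1l1 (0.23, 0.0735 and 0.0111), Trio (0.19, 0.256 and 0.0289) and Arhgef11 (0.15, 0.347 and 0.0444), while Nck1 was lower (−0.18, 0.0658 and 0.0159). Neo1, the netrin receptor neogenin, was not called (0.00, adjusted p = 0.985), and Dcc had no count in any negative library and was not tested.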

How the data were processed

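The authors deposited unnormalised whole-number counts of reads for each gene in 14 libraries, made with Subread and featureCounts on GRCm38, per the submitters' processing notes. Versions, annotation, strand setting and treatment of reads matching several genes are not given in the sources used here. Without the strand setting, reads of members cannot be told apart from those of genes with overlapping exons on the opposite strand in GENCODE M21: Ephb4 (Zan), Plxna4 (Plxna4os3), Plxna1 (Gm26811), Sema4c (D430040D24Rik), Plxnb1 (Gm7628), Unc5a (Hk3), Epha1 (Zyx) and Unc5c (Gm15688). Columns were matched to samples by the column name in the titles. No 2 libraries of a group agreed within sampling noise (lowest chi-square per degree of freedom 5.36).

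Genes were filtered by filterByExpr of edgeR 4.0.16 (R 4.3.3), leaving 16350, and scaled by TMM factors (0.969 to 1.03). The quasi-likelihood F-test was fitted on the whole table with group as the only term, robust dispersions and Benjamini-Hochberg adjustment (threshold 0.05), two-sided. A member that passed the filter through positive libraries alone is among the 47 by its rise. Standard errors come from the F statistic. CPM use TMM-scaled library sizes, and levels per length divide CPM by the exon union of GENCODE M21.

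Libraries with the same number deviated together from their group means (correlation over genes 0.203 to 0.541 in all 7 pairs, median 0.404; −0.421 to 0.369 for different numbers, median −0.125), and 5 of 7 negative libraries correlated best with their own number. Deviations within a group cancel out, so high correlations for own numbers push those for different numbers down. As every pair was above 0.1, the numbers were taken to pair the libraries in the blocked fit. The main fit leaves the pairing out. The pairing comes from the numbers in the titles, since the labels do not name shared mice. The blocked value is given where it changes the call of a member, partner gene or count over a marker list.

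The test was tested on simulated counts for this comparison: of genes changed 1.5-fold, 2-fold and 4-fold (67, 67 and 66 genes among 16185 tested), 62.7%, 68.7% and 93.9% were recovered, and 2.6% of calls were unchanged genes. Those counts were drawn independently from the dispersions that edgeR fitted, with no shift shared by genes within a pair or a library. The real pairs share such shifts (correlations of 0.203 to 0.541), so these shares do not measure the error rate in the real libraries.

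The members, the partner and marker lists and the rule for named genes were chosen with earlier results of these data known. Named were all members called with or without the block and the most abundant member of each family per length; others are given by range or in short. Alternatives were the block, DESeq2 1.42.0, other scaling and filters, and leaving out libraries.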

Additional observations from a re-analysis of the deposited data

Results flagged for a closer look

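In 94 groups of 7 libraries (47 guidance genes in 2 groups), 6 had a library whose gap to the next was more than 0.568 of the group's range. For independent, normally distributed values, chance gives about 1 in 20 such groups. Whether CPM follow that distribution was not checked, and the groups share the same libraries, so this rate is only a rough guide. All 6 were in negative libraries, in negative 3 or negative 1, and the cause was not tested.

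In negative 3, which held 1466 CPM of pericyte, stellate and fibroblast markers, Slit3 stood at 4.63 CPM (0.0427 to 0.528 in the other 6 negative libraries), Slit2 at 3.73 CPM (0.634 to 1.32), Sema7a at 8.84 CPM (0.270 to 3.43) and Sema6c at 4.15 CPM (2.94 to 3.44). In negative 1, Sema4a stood at 35.4 CPM (14 to 19.3) and Sema6b at 7.81 CPM (2.90 to 3.71).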

How the results depend on the processing

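The count of guidance genes called stayed within 1.5 times of 17 in all alternatives run: 21 with the replicate block, 18 with DESeq2, 17 with RLE factors, 16 with upper quartile factors, 20 without a filter, 17 with a stricter filter or without robust dispersions, 12 without the libraries numbered 6 and 7, and 16 to 20 when single libraries were left out. The count of partner genes (15) went to 25 with the replicate block and 7 without the libraries numbered 6 and 7, and was 12 to 17 without single libraries. All genes called (1313) went to 3200 with the block and 581 without numbers 6 and 7, and ranged from 965 without positive 6 to 1883 without negative 3. DESeq2 called Slit3 (2.52, adjusted p = 0.000816) without the block, where the main fit gave 0.84. Its default settings, used here, replace extreme counts in groups of this size. Whether the 77 counts of Slit3 in negative 3 were replaced was not checked, so this may not be a call on all counts. Upper quartile factors lost Sema6a (0.0574). Leaving out numbers 6 and 7 turned the sign of uncalled genes: Ntn4 to −0.18, Plxnb2 to 0.01 and Robo2 to 0.07. Leaving out single libraries gave −0.07 to 0.43 for Ntn4 and −0.10 to 0.04 for Robo2. Robo2 was 0.03 without negative 4, 0.01, 0.04, 0.00 and 0.03 without positive 1, 2, 6 and 7, and Ntn4 was −0.07 without positive 2. By the longest transcript in place of the exon union, the leading member was the same in 9 of 10 families, with Ephb2 in place of Ephb4. At this depth, members of under about 10 reads in most libraries could not be tested.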

Other observations

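The 17 guidance genes below the count filter hold a few that appeared in positive libraries. Plxnc1, a receptor of Sema7a known from immune cells, had 11 counts over the 7 negative and 357 over the 7 positive libraries. Its level was at most 0.142 CPM in negative libraries, 0.525 to 1.72 CPM in positive 1 to 5, and 8.17 and 5.59 CPM in positive 6 and 7. Those are the libraries in which macrophage markers summed to 727 and 505 CPM, against 86.2 to 120 CPM in the other positive libraries, and their part was not tested. Without a filter on low counts, edgeR's quasi-likelihood test called Plxnc1 (log2 fold change 4.83 ± 0.78, adjusted p = 0.00223) and Epha4 (2.22 ± 0.55, adjusted p = 0.0212; 21 and 110 counts). It also called Ephb1 (adjusted p = 0.00835), whose 2 negative and 31 positive counts give a ratio of 13.8 per read of depth (exact 95% interval 3.52 to 119, counting error only).

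The other 14 had no call in that fit. Epha3 had 61 negative counts, nearly all in negative 3 (3.43 CPM, against at most 0.0926 CPM in the other negative libraries), as Slit3 did. Over both groups, the sums were 123 counts of Sema3d, 108 of Epha5, 104 of Sema3b, 101 of Ephb3, 60 of Plxnb3, 51 of Sema5b, 29 of Epha10, 21 of Sema3a, 18 of Efna3, 18 of Slit1, 7 of Efna4, 3 of Ntn5 and 1 of Epha6. Of the rows matched by symbol only, Unc5cl had 63 counts, Plxna4os1 had 3, and Plxna4os2 and Plxna4os3 had 0.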
